A study of Caenorhabditis elegans with 40 samples.

Results

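The genes described here encode the lysozymes, saposin-like proteins and caenacins of the nematode Caenorhabditis elegans. They are all genes of the deposited table whose symbol starts with lys-, ilys-, spp- or cnc-, which gave 50 of 20956 genes. The set holds 10 lys genes, 6 ilys genes, 23 spp genes and 11 cnc genes. Membership was set by name alone and used no measured value, though the set was chosen with earlier results of these data known.

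Lysozymes cut the peptidoglycan wall of bacteria, and in an animal that feeds on bacteria they serve both defence and digestion. The lys genes encode lysozymes related to those of protists, and the ilys genes encode lysozymes of the invertebrate type. Saposin-like proteins are small proteins held together by disulphide bonds that act on membranes, and the best studied nematode members, the caenopores, open pores in bacterial membranes in the manner of the amoebapores of Entamoeba. Caenacins are short glycine-rich peptides of the epidermis that are induced by fungal infection. Several of these effectors are read out as immune outputs of the p38 kinase, the insulin and FOXO pathway and the growth factor DBL-1.

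RNA was sequenced from whole bodies on day 1 of adulthood in 10 groups of 4 libraries. The treated groups received RNA interference (RNAi) against repo-1, a gene for a spliceosome component, from hatching in 5 genotypes, and their controls received the empty vector for the same time. The mutants were eat-2(ad1116), strain DA1116, in which pharyngeal pumping is slow and less food is taken in; raga-1(ok386), strain VC222, with a mutated Rag GTPase gene upstream of the target of rapamycin complex; clk-1(qm30), strain MQ130, which is impaired in ubiquinone synthesis; and age-1(hx546), strain TJ1052, with a mutated gene for a phosphoinositide kinase in insulin signalling. The reference genotype was wild type N2. Each mutant is represented by 1 allele in 1 strain, and whole-body RNA cannot tell fewer cells of a type from less RNA per cell.

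The libraries held 7.43 to 40.8 M reads, and the members took 0.313 to 0.346% of reads in raga-1 animals on RNAi and 0.18 to 0.31% in the other 9 groups. On RNAi, repo-1 stood at 52.7% (eat-2), 47.7% (raga-1), 40.1% (clk-1), 46.3% (age-1) and 38% (wild type) of its empty vector level. In age-1 animals on RNAi the repo-1 level differed between libraries, at 471, 367, 322.5 and 331.5 normalized read counts in libraries 1 to 4. The raga-1 gene itself had 12.7 to 135 normalized read counts in raga-1 animals on RNAi and 27.5 to 49.5 in those on empty vector, against 1463 to 1573 in all wild type libraries. No marker of the intestine list was at 0 in all libraries of a group, and 1 of 22 epidermis markers was in 7 of the 10 groups.

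All 50 members were found in the Ensembl annotation of the genome build WBcel235, and 28 of them lay in 9 clusters with less than 10 kb between neighbours. The protist-type genes lys-1, lys-2 and lys-3 stand side by side on chromosome V from 10277904 to 10283544, and lys-4, lys-5 and lys-6 on chromosome IV from 11621429 to 11627947. The ilys-3, ilys-2 and ilys-1 genes occupy chromosome IV from 2464456 to 2471449. The saposin-like genes spp-3, spp-2, spp-6, spp-4 and spp-5 fill 5386 bases of chromosome X, from 7314969 to 7320354. Chromosome V holds 6 caenacin genes, cnc-11, cnc-1, cnc-5, cnc-4, cnc-3 and cnc-2, between 1442342 and 1450183. Neighbours of this kind are related copies and could share reads, which was not tested. The gene lys-7 stands alone on chromosome V from 3481432 to 3482600, and lys-8 on chromosome II from 5586178 to 5587651.

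Levels differed over several orders of magnitude between members. Counted per kb of exon, the highest mean over the 40 libraries was that of spp-5, the pore-forming caenopore, at 18830 normalized read counts per kb. It was followed by spp-14 at 12100, lys-1 at 6771, spp-17 at 5671 and the invertebrate-type lysozyme gene ilys-5 at 4885 per kb. The caenacins were lower, with cnc-8 highest among them at 839 normalized read counts per kb and cnc-2 at 101. A mean of at least 10 normalized read counts was reached by 29 members, namely 7 lys, 2 ilys, 14 spp and 6 cnc genes, and only these entered the test. The other 21 lay under that mean and are described separately. A member that passes only through a group where it is high is bound to differ. Among the 29, cnc-7 is such a member: its mean was 45.7 normalized read counts in raga-1 animals on RNAi and 9.30 over the other 36 libraries, so its calls in raga-1 support nothing and are counted here only for completeness.

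**Figure D1:**
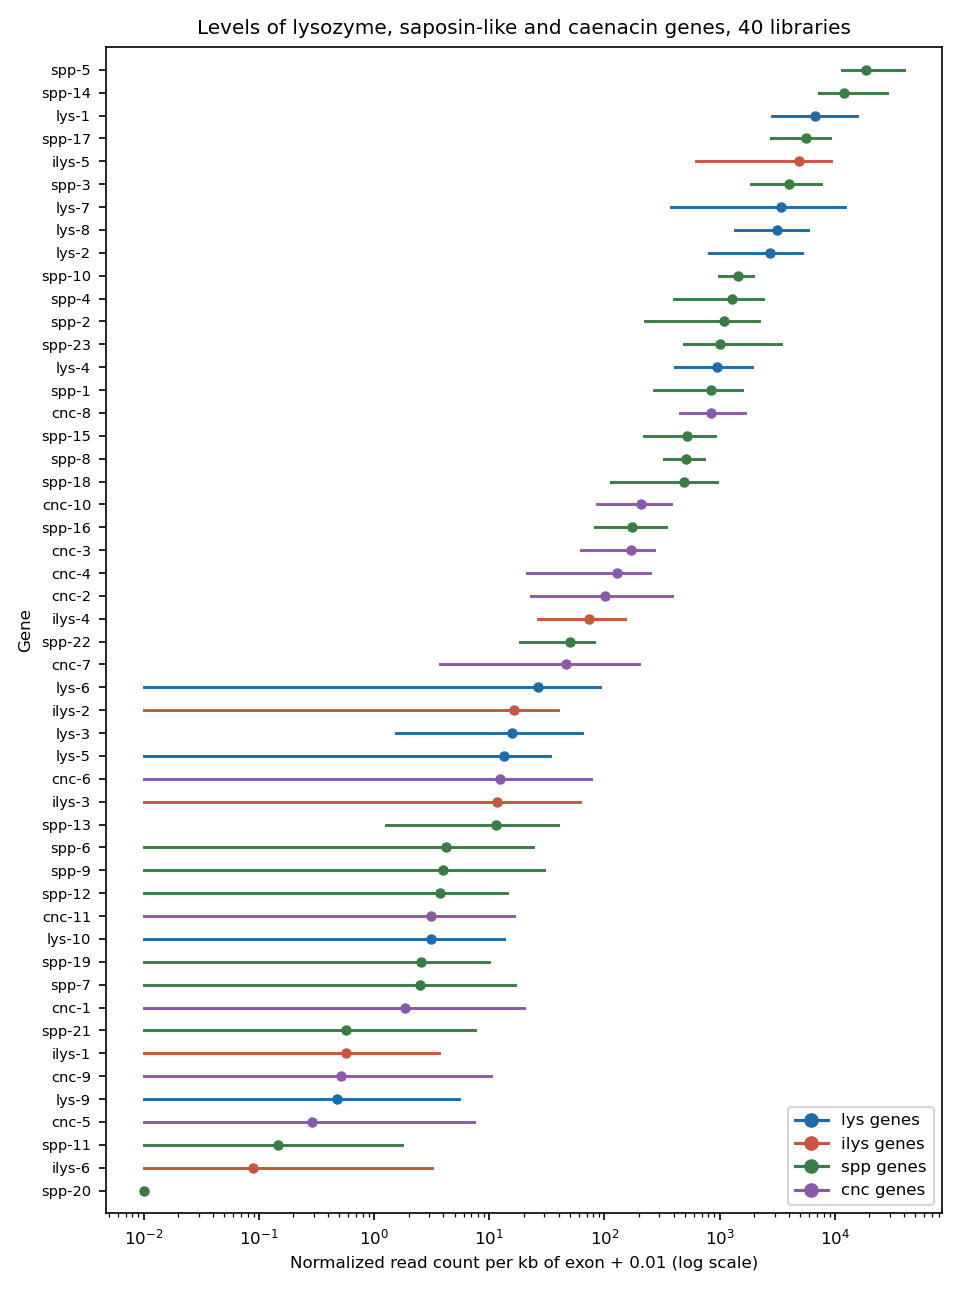
Level of each of the 50 members in normalized read counts per kb of exon, on a log axis after adding 0.01. Points are means over the 40 libraries and lines run from the lowest to the highest library; spp-5 is highest at 18830 per kb and spp-20 had no read.

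With repo-1 RNAi, most of the called lys genes rose and most of the called spp genes fell in wild type, eat-2 and age-1 animals. The difference between the families was not tested, and the median of the 7 tested lys genes in eat-2 was -0.03 on the log2 scale. Genes were tested with limma on log2(value + 1) and called at a Benjamini-Hochberg adjusted p under 0.05 over 12327 genes. In wild type, 5 of 7 lys genes rose and 1 fell on RNAi, while 1 of 14 spp genes rose and 7 fell. In eat-2 animals 3 lys genes rose and 1 fell, and 7 spp genes fell with none rising, although spp-18 also rose after quantile normalization. In age-1 animals 4 lys genes rose and 1 fell, and 10 spp genes fell with none rising. Of the lys genes 85.7% (wild type), 57.1% (eat-2) and 71.4% (age-1) were called, and of the spp genes 57.1%, 50% and 71.4%. Over all genes the shares were 23%, 37.5% and 20.9%. Leaving out the libraries of 1 number lost the age-1 calls of lys-7, spp-2, spp-4, spp-5, spp-8, spp-15 and spp-22. It also lost those of lys-3, spp-2 and spp-15 in wild type and of spp-22 in eat-2. In raga-1 and clk-1 animals few members fell on RNAi. Of the lys genes, 4 rose in each and none fell. Of the spp genes 4 rose and 2 fell in raga-1, and 6 rose and 3 fell in clk-1. In raga-1 57.1% of lys and 42.9% of spp genes were called beside 71.1% of all genes, so these numbers are not results about the families. In clk-1 the shares were 57.1% and 64.3%, beside 46.3% of all genes. Leave-outs lost the raga-1 calls of spp-3, spp-4, spp-17 and spp-23 and the clk-1 calls of spp-1, spp-3 and spp-10.

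Of the 29 tested members, 16 were called on RNAi in wild type, 6 higher and 10 lower, where 23% of all tested genes were called (10.1% higher, 12.9% lower). In eat-2 animals 14 were called, 4 higher and 10 lower, against 37.5% of all genes (16.2% higher, 21.4% lower), and after quantile normalization the split was 7 higher and 8 lower. In clk-1 animals the count was 17, with 14 higher and 3 lower, against 46.3% of all genes (23.8% higher, 22.5% lower). In age-1 animals it was also 17, with 6 higher and 11 lower, against 20.9% of all genes (10.6% higher, 10.2% lower). In raga-1 animals 16 members were called, or 55.2% of them, where 71.1% of all genes were called, so the number called there is not a result about the members. The split was 14 higher and 2 lower in raga-1, where 38.2% of all genes rose and 33% fell.

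The median log2 fold change of the members on RNAi was below 0 in wild type (-0.23, against -0.02 over all genes), eat-2 (-0.20 against -0.03) and age-1 (-0.22 against 0.00). It was above 0 in raga-1 (0.45 against 0.10) and clk-1 (0.34 against 0.00). The shift of 0.10 over all genes in raga-1 became -0.07 after quantile normalization, where 13 members rose and 2 fell and 43.2% of all called genes rose. Calls were less stable in age-1: of 17 called members there, 8 remained called when the libraries of each number were left out in turn, against 12 of 16 in wild type, 11 of 14 in eat-2, 11 of 16 in raga-1 and 12 of 17 in clk-1. Averaged over the 5 genotypes, 12 members rose and 10 fell, where 65.6% of all genes were called (31.4% higher, 34.2% lower).

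**Figure D2:**
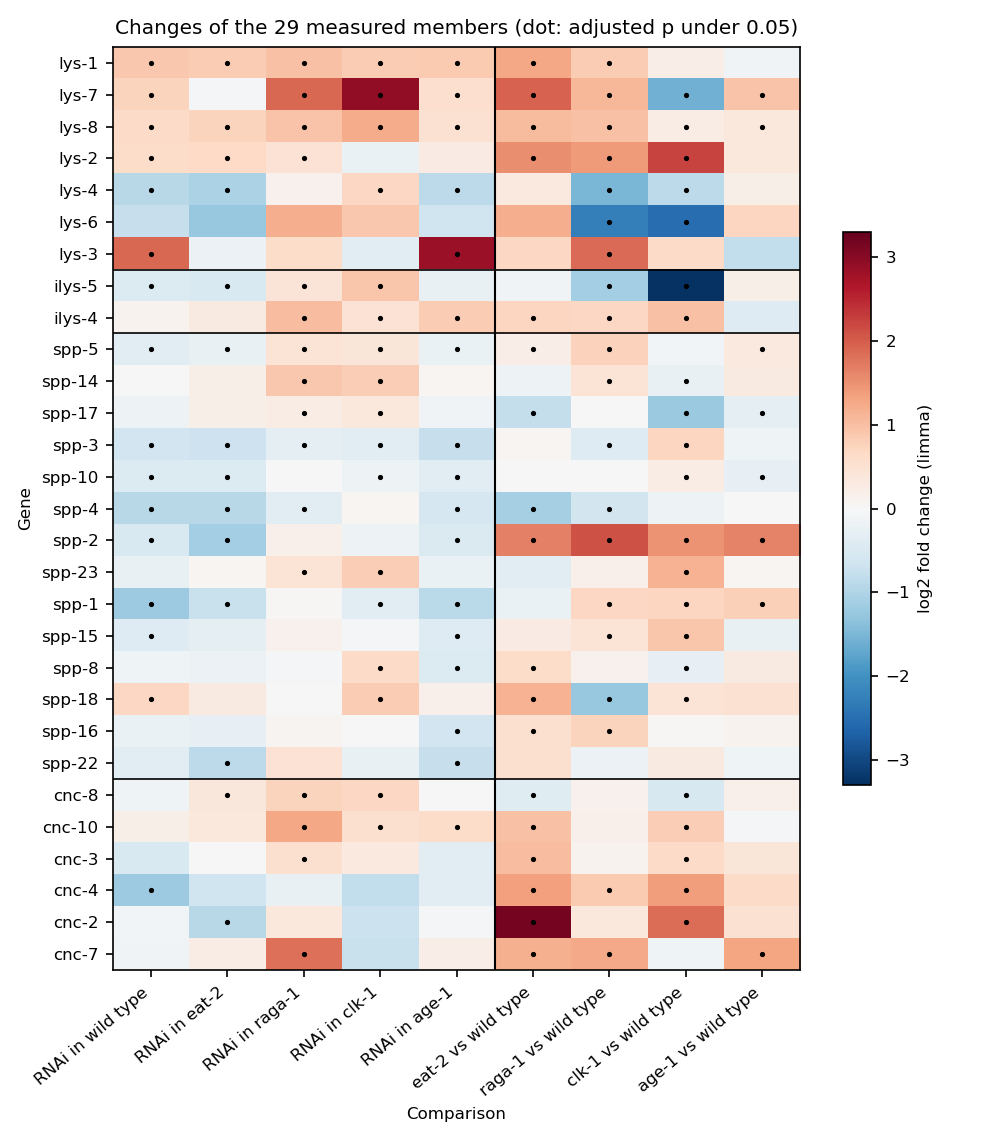
Log2 fold changes of the 29 tested members, grouped as lys, ilys, spp and cnc genes and ordered by level per kb, in the 5 comparisons of repo-1 RNAi with empty vector (left of the line) and of 4 mutants with wild type on empty vector (right). Dots mark an adjusted p under 0.05; lys-1 and lys-8 are red in all 5 RNAi columns and spp-3 is blue in all 5.

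Among the lysozymes, lys-1 and lys-8 were the 2 members called higher on RNAi in all 5 genotypes. The lys-1 gene, whose product contributes to resistance to Serratia, had 5837, 6057, 5862 and 5208 normalized read counts in wild type on RNAi and 3109, 3163, 2907 and 3264 on empty vector. In eat-2 animals lys-1 had 14990, 13410, 12810 and 13150 on RNAi and 8059, 7306, 7261 and 7502 on empty vector. No library of lys-1 on RNAi overlapped those on empty vector in these genotypes, and the log2 fold change was 0.88 ± 0.12 (SE, n = 4 libraries per group, adjusted p = 5.72e-07 by limma) in wild type and 0.85 ± 0.12 in eat-2. In the other genotypes lys-1 rose by 0.96 ± 0.12 (raga-1), 0.84 ± 0.12 (clk-1) and 0.88 ± 0.12 (age-1).

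In age-1 animals the lys-1 libraries on RNAi fell apart, with 3569 and 4195 normalized read counts in libraries 1 and 2 and 6939 and 7147 in libraries 3 and 4. Each library number is its own batch in the labels, so this is not a split between 2 labelled batches. Those on empty vector stayed together, at 2842, 2911, 2760 and 2869. Within batches 1 and 2 the log2 fold change of lys-1 in age-1 animals was 0.43 (adjusted p = 0.00187 by limma), and within batches 3 and 4 it was 1.32 (adjusted p = 1.54e-09 by limma). The 2 libraries with the higher lys-1 were those with the lower repo-1, and the part of repo-1 level in this difference was not tested. The neighbouring lys-2 and lys-3 split in the same way on RNAi in age-1 animals, with lys-2 at 880, 1067, 1934 and 1985 and lys-3 at 4.98, 19.1, 68.5 and 70.5. On empty vector lys-2 had 1238, 1431, 877.6 and 1099 in age-1 animals, and lys-3 had 3.90, 1.84, 2.20 and 3.87. Over all 4 batches lys-2 was not called in age-1, but it was called lower within batches 1 and 2 (-0.46, adjusted p = 0.0283 by limma) and higher within batches 3 and 4 (1.00, adjusted p = 4.25e-05).

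The gene lys-8, which responds to DBL-1 signalling, rose by 0.62 ± 0.08 on the log2 scale in wild type (SE, n = 4, adjusted p = 6.19e-07 by limma). Its libraries held 2138, 2366, 2167 and 2251 normalized read counts on RNAi and 1380, 1595, 1328 and 1509 on empty vector. Further rises of lys-8 were 0.74 ± 0.08 (eat-2), 0.94 ± 0.08 (raga-1) and 0.51 ± 0.08 (age-1). In age-1 animals the rise of lys-8 was 0.28 within batches 1 and 2 (adjusted p = 0.0256 by limma) and 0.74 within batches 3 and 4 (adjusted p = 2.52e-07), with 2143, 2285, 3167 and 3147 on RNAi and 1821, 1838, 1930 and 1856 on empty vector. The value was highest in clk-1 animals at 1.22 ± 0.08 (adjusted p = 2.66e-14 by limma), with 3820, 3621, 4231 and 4419 normalized read counts on RNAi and 1619, 1726, 1811 and 1726 on empty vector. In none of the 5 genotypes did the lys-8 libraries on RNAi overlap those on empty vector. A gene on the opposite strand, C17G10.13, overlaps lys-8.

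The gene lys-7 encodes an intestinal lysozyme and is a known target of the FOXO factor DAF-16. In clk-1 animals lys-7 had 2489, 2567, 2912 and 3175 normalized read counts on RNAi and 339.2, 356.2, 385 and 369 on empty vector. That is a log2 fold change of 2.93 ± 0.16, or 7.64-fold (SE, n = 4, adjusted p = 9.04e-17 by limma), the largest RNAi change of any member with a mean of at least 100. In raga-1 animals lys-7 had 11060, 9237, 7716 and 7371 on RNAi and 2441, 2656, 2196 and 2062 on empty vector, a log2 fold change of 1.91 ± 0.16.

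In wild type lys-7 had 1656, 1947, 1634 and 2123 normalized read counts on RNAi and 997.5, 1202, 928 and 1276 on empty vector, and it rose by 0.74 ± 0.16 (adjusted p = 0.000669 by limma). In age-1 animals it had 2068, 2780, 4001 and 3816 on RNAi and 1628, 1919, 2666 and 2292 on empty vector. The age-1 libraries overlapped, and the rise of 0.55 ± 0.16 (adjusted p = 0.012 by limma) lost its call without libraries 2 (adjusted p = 0.0751) or 3 (adjusted p = 0.0527). In eat-2 animals lys-7 had 3911, 3635, 3814 and 5331 on RNAi and 4076, 3734, 4325 and 4728 on empty vector, and the libraries overlapped. The log2 fold change in eat-2 was -0.03 ± 0.16 and was not called (adjusted p = 0.912 by limma).

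A rise of lys-2 was called in wild type (0.60 ± 0.16), eat-2 (0.66 ± 0.16) and raga-1 (0.48 ± 0.16), and its log2 fold change in clk-1 was -0.23 ± 0.16 without a call. The gene lys-4 changed direction between genotypes. It had 464, 515.7, 500.4 and 680.1 normalized read counts in wild type on RNAi and 834.9, 1242, 792.9 and 1266 on empty vector, and fell by 0.92 on the log2 scale (SE 0.15, adjusted p = 1.59e-05 by limma). It fell to a like extent in eat-2 (-1.03 ± 0.15) and age-1 (-0.86 ± 0.15). In clk-1 animals lys-4 had 782.1, 701.9, 1066 and 1026 on RNAi and 552.8, 487.5, 528.5 and 650.8 on empty vector, which is a rise of 0.67 ± 0.15 (adjusted p = 0.000288 by limma). The low genes lys-3 and lys-6 varied more, and a rise of lys-3 was called in age-1 (2.86 ± 0.55) and in wild type (1.89 ± 0.55, adjusted p = 0.0829 without libraries 1).

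**Figure D3:**
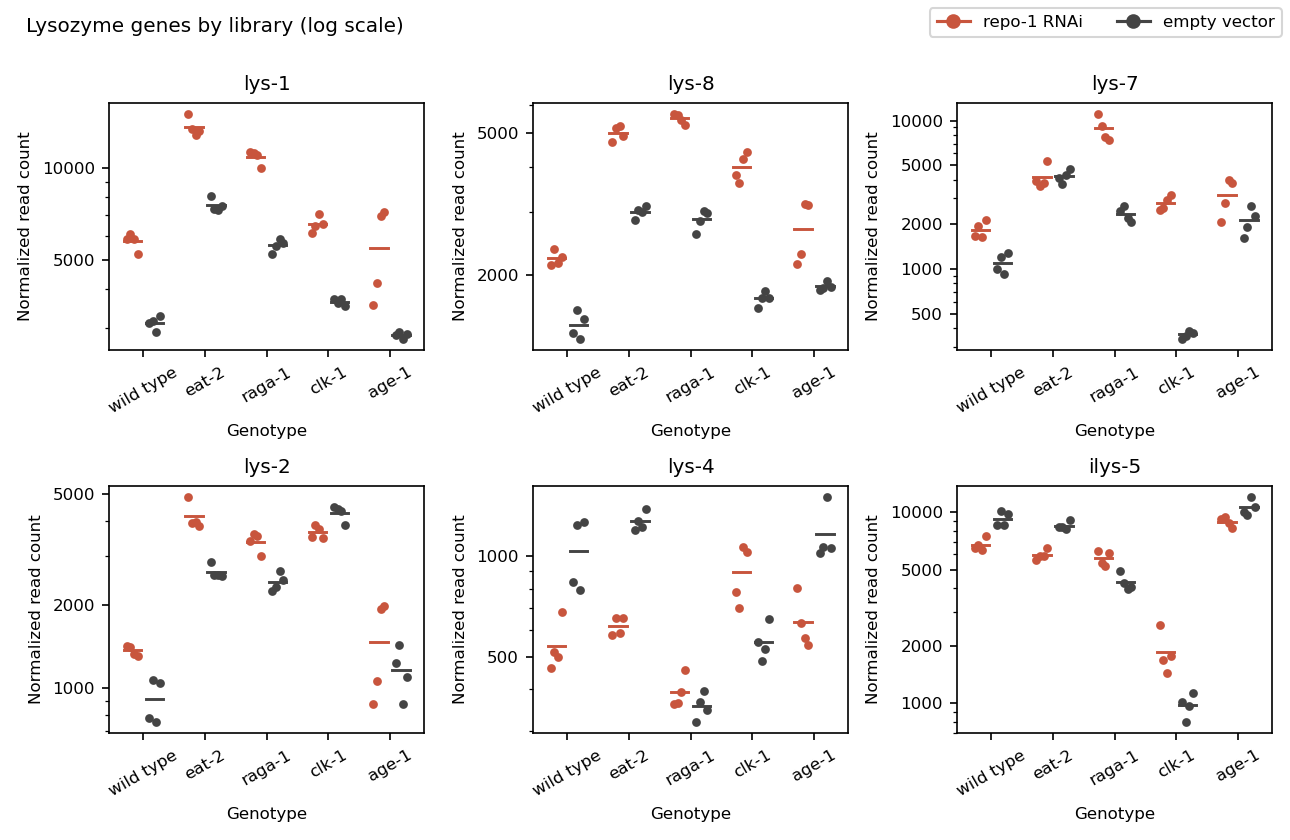
Normalized read counts of 6 lysozyme genes in each of the 40 libraries on a log axis, with repo-1 RNAi (red) left of empty vector (grey) in each genotype and bars at group means. In clk-1 animals lys-7 lies between 2489 and 3175 on RNAi and between 339.2 and 385 on empty vector, and ilys-5 is far below its level in the other genotypes.

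Of the invertebrate-type lysozymes, only ilys-5 and ilys-4 were abundant enough to test. On RNAi ilys-5 had 6494, 6681, 6340 and 7504 normalized read counts in wild type, against 8548, 10100, 8583 and 9705 on empty vector, and it fell by 0.45 on the log2 scale (SE 0.11, adjusted p = 0.00222 by limma). It fell likewise in eat-2 animals (-0.50 ± 0.11). In clk-1 animals ilys-5 had 2555, 1681, 1431 and 1758 on RNAi and 1011, 798.9, 964.1 and 1124 on empty vector, a rise of 0.91 ± 0.11 (adjusted p = 1.66e-08 by limma), and in raga-1 it rose by 0.42 ± 0.11. The treatments did not overlap in these genotypes. The gene ilys-4 rose in raga-1 by 1.03 ± 0.18, with 103 to 118 normalized read counts on RNAi and 46.8 to 69.6 on empty vector.

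Among the saposin-like genes, spp-3 was the member called lower on RNAi in all 5 genotypes. Its log2 fold change was -0.62 ± 0.11 in wild type (921.5, 1034, 945 and 1068 normalized read counts on RNAi and 1581, 1604, 1449 and 1467 on empty vector), -0.68 ± 0.11 in eat-2 and -0.76 ± 0.11 in age-1. The falls were -0.32 ± 0.11 in raga-1 and -0.34 ± 0.11 in clk-1. These smaller falls of spp-3 lost their calls when libraries were left out, in raga-1 without libraries 4 (-0.20, adjusted p = 0.101 by limma) and also after quantile normalization (-0.20, adjusted p = 0.118), and in clk-1 without libraries 1 or 3 (adjusted p = 0.0779 and 0.0565 by limma).

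The antibacterial caenopore gene spp-1, which is active in the intestine, showed the largest fall in wild type among members with a mean of at least 100. It had 148.1, 152.1, 156.4 and 199.8 normalized read counts on RNAi and 358.9, 383.7, 366.8 and 386.9 on empty vector, with a log2 fold change of -1.19 ± 0.15 (SE, n = 4, adjusted p = 2.65e-07 by limma), or 2.29-fold lower. In age-1 animals spp-1 had 378.8, 392.4, 293 and 328.5 on RNAi and 621.7, 631.3, 666.4 and 659.5 on empty vector (-0.90 ± 0.15). It fell in eat-2 as well (-0.73 ± 0.15), where the RNAi libraries held 141.3, 166.9, 248.3 and 234.6 and the controls 282.7, 307.1, 315.7 and 384.5. No library on RNAi overlapped its controls in these 3 genotypes.

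In raga-1 animals spp-1 stayed high, at 822.4, 587.8, 427.5 and 696.4 normalized read counts on RNAi and 680.2, 554.2, 552.8 and 605.3 on empty vector, and the log2 fold change of 0.05 ± 0.15 was not called. In clk-1 animals it had 558.3, 404.1, 504.1 and 463.1 on RNAi and 574.9, 583.3, 611.8 and 702.1 on empty vector. That fall of spp-1, -0.36 ± 0.15 (adjusted p = 0.0459 by limma), was lost without libraries 2, 3 or 4 (adjusted p = 0.207, 0.0545 and 0.213). The opposite-strand gene T07C4.3 overlaps spp-1.

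The most abundant caenopore gene, spp-5, fell in 3 genotypes and rose in 2. In wild type spp-5 had 4414, 4411, 4304 and 4571 normalized read counts on RNAi and 5332, 5660, 5689 and 5706 on empty vector, a log2 fold change of -0.34 ± 0.07 (adjusted p = 0.000655 by limma). In raga-1 animals it had 14750, 12570, 11780 and 13000 on RNAi and 10850, 9011, 8687 and 9381 on empty vector, a rise of 0.46 ± 0.07 (adjusted p = 1.02e-06 by limma). In clk-1 animals spp-5 rose by 0.41 ± 0.07, with 6266 to 7615 on RNAi and 4663 to 5801 on empty vector.

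In eat-2 animals spp-5 had 5087, 5219, 5441 and 6191 on RNAi and 6365, 6240, 6145 and 7327 on empty vector, and fell by 0.25 (SE 0.07). In age-1 animals it had 6429, 5917, 5880 and 5554 on RNAi and 6946, 6715, 7376 and 6728 on empty vector. The age-1 fall of spp-5, -0.22 ± 0.07 (adjusted p = 0.0241 by limma), lost its call without libraries 2, 3 or 4 (adjusted p = 0.0703, 0.151 and 0.0699).

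Its neighbours spp-2 and spp-4 also fell in wild type, eat-2 and age-1. In age-1 the fall of spp-2 (-0.47, adjusted p = 0.0151 by limma) was lost without libraries 1 (adjusted p = 0.0972) or 2 (adjusted p = 0.0735), and that of spp-4 (-0.56, adjusted p = 0.00432) without libraries 3 (adjusted p = 0.0634). In raga-1, where spp-5 rose, spp-4 was called lower (-0.36, adjusted p = 0.0224 by limma), a call lost without libraries 1 (adjusted p = 0.121) or 2 (adjusted p = 0.0987). The largest fall of an abundant member in eat-2 was that of spp-2, which had 293.7, 293.5, 291.1 and 303.7 normalized read counts on RNAi and 601.7, 663.4, 616.9 and 715.7 on empty vector (-1.13 ± 0.14, adjusted p = 1.01e-07 by limma). In wild type the spp-2 libraries overlapped, and the fall of 0.49 on the log2 scale (SE 0.14, adjusted p = 0.0101) was lost without libraries 1 (adjusted p = 0.0579). For spp-4 the log2 fold change was -0.92 ± 0.14 in wild type and -0.92 ± 0.14 in eat-2. The prosaposin-like gene spp-10 fell by 0.45 in both wild type and eat-2 (SE 0.06 each) and by 0.35 in age-1, and stood at 0.01 ± 0.06 in raga-1.

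Outside this cluster, spp-14 rose in raga-1 (0.88 ± 0.10) and clk-1 (0.82 ± 0.10). In raga-1 animals spp-14 had 10120, 7782, 7502 and 8890 normalized read counts on RNAi and 4529, 4458, 4823 and 4661 on empty vector, without overlap. In wild type its log2 fold change was 0.00 ± 0.10. The gene spp-23 rose in clk-1 by 0.82 ± 0.17, and spp-8 in clk-1 by 0.64 ± 0.11. Among the tested genes, spp-3, spp-8, spp-14, spp-17, spp-18, spp-23, ilys-4, lys-3, lys-6 and the caenacins other than cnc-2 are singled out after their values were seen.

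**Figure D4:**
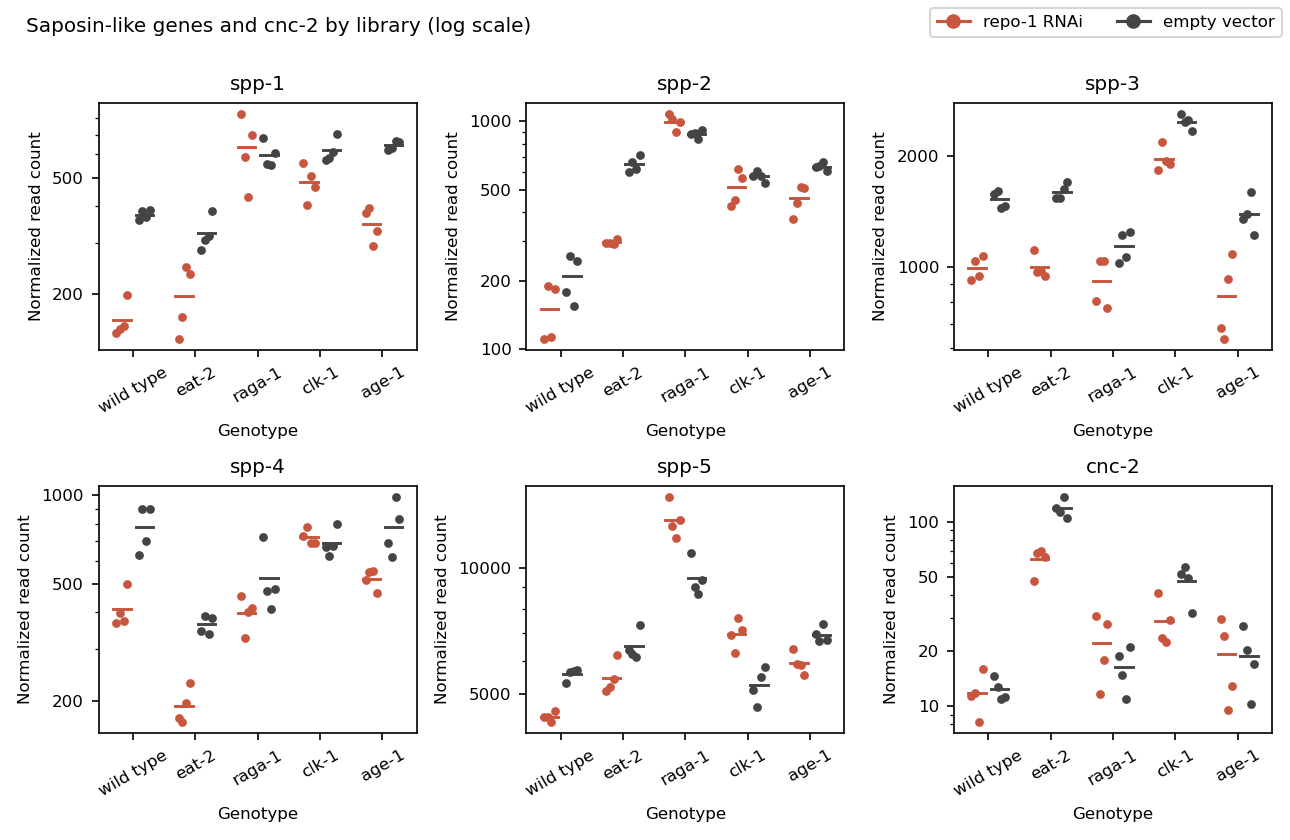
Normalized read counts of 5 saposin-like genes and the caenacin gene cnc-2 in each of the 40 libraries on log axes, with repo-1 RNAi (red) left of empty vector (grey) in each genotype and bars at group means. The wild type spp-1 libraries lie between 148.1 and 199.8 on RNAi and between 358.9 and 386.9 on empty vector, while the raga-1 libraries of the 2 treatments overlap.

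Among the 6 tested caenacin genes, 4 were called higher in raga-1 animals on RNAi and none lower, which is 66.7% called beside 71.1% of all genes and so not a result about the caenacins. The rises of cnc-10 and cnc-8 were 1.29 ± 0.18 and 0.74 ± 0.11 on the log2 scale. The gene cnc-7, which was tested only because of its level in this group, had 55.3, 40.7, 32.9 and 54 normalized read counts on RNAi and 24, 9.37, 6.88 and 13.3 on empty vector. For cnc-3 the rise of 0.52 ± 0.23 (adjusted p = 0.0413 by limma) was lost in each of the 4 leave-outs (adjusted p 0.0554 to 0.103) and became -0.01 after quantile normalization. In clk-1 animals 2 rose, cnc-8 (0.68 ± 0.11) and cnc-10 (0.53 ± 0.18, adjusted p = 0.0712 without libraries 3 and 0.0748 without libraries 4). The gene cnc-2, which is induced in the epidermis by fungal infection, had 47.9, 68.3, 70 and 64.3 normalized read counts in eat-2 animals on RNAi and 119.7, 113.9, 136.5 and 105.6 on empty vector. Its fall there was -0.92 ± 0.31 (adjusted p = 0.0163 by limma) and was lost without libraries 1 (-0.80, adjusted p = 0.0632).

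In the other genotypes no change of cnc-2 was called on RNAi. It had 11.3, 11.9, 8.23 and 15.9 normalized read counts in wild type on RNAi and 14.6, 12.7, 11 and 11.2 on empty vector. In raga-1 animals cnc-2 had 30.9, 11.6, 17.7 and 27.9 on RNAi and 18.7, 14.7, 11 and 21 on empty vector, and in age-1 animals 29.9, 24.1, 9.51 and 12.9 on RNAi and 27.3, 20.3, 10.3 and 17 on empty vector. In clk-1 animals it had 41.3, 23.5, 22.5 and 29.5 on RNAi and 52.5, 57.3, 49.8 and 32 on empty vector, a log2 fold change of -0.71 ± 0.31 (adjusted p = 0.0568 by limma). With the replicate number as a block this cnc-2 value passed (adjusted p = 0.0391).

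On empty vector the mutants themselves carried changed levels of these genes, and most of the called changes were rises. Of the 29 members, 15 were higher and 3 lower in eat-2 than in wild type, where 57% of all genes were called (27.2% higher, 29.8% lower). In raga-1 14 were higher and 6 lower, against 46.1% of all genes (19.7% higher, 26.4% lower). In clk-1 14 were higher and 8 lower, against 58.3% (27.8% higher, 30.4% lower), and in age-1 6 were higher and 2 lower, against 8.48% (4.76% higher, 3.72% lower). The share of members called was 62.1% (eat-2), 69% (raga-1), 75.9% (clk-1) and 27.6% (age-1). The number called in eat-2 is near the share of all genes and is not a result about the members. The members' median log2 fold change was 0.60 (eat-2), 0.35 (raga-1), 0.25 (clk-1) and 0.19 (age-1), against 0.00, -0.02, -0.01 and -0.02 over all genes in the same order. All 4 mutants share the wild type libraries as controls, so their values are set side by side and their likeness is not tested. The counts of eat-2 depend on scaling, with 11 higher and 4 lower after quantile normalization, as 5 of its 18 calls (cnc-3, cnc-4, cnc-7, ilys-4 and spp-16) were lost there.

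The saposin-like gene spp-2 was called higher in all 4 mutants on empty vector. It had 880.2, 887.6, 838.8 and 913.8 normalized read counts in raga-1 and 629.5, 635.9, 665 and 606.1 in age-1, against 178.2, 258, 154.9 and 244.7 in wild type. The log2 fold change of spp-2 was 2.10 ± 0.14 in raga-1 (adjusted p = 2.08e-14 by limma), 1.66 ± 0.14 in eat-2, 1.63 ± 0.14 in age-1 and 1.48 ± 0.14 in clk-1. Its lowest mutant library, at 535.5 in clk-1, lay above the highest of wild type at 258. Also higher in each mutant was lys-8, by 1.05 ± 0.08 in eat-2, 0.98 ± 0.08 in raga-1, 0.36 ± 0.08 in age-1 and 0.25 ± 0.08 in clk-1, the last of which was lost without libraries 3 (adjusted p = 0.11).

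In eat-2 animals lys-7 was the abundant member with the largest rise, at 1.94 ± 0.16 above wild type (adjusted p = 1.65e-12 by limma), from the empty vector values given above. The largest fall there was that of spp-4, with 344.6, 387.6, 338.6 and 383.5 normalized read counts in eat-2 against 626.6, 900.5, 698.5 and 901.2 in wild type (-1.09 ± 0.14). The lower-abundance cnc-2 was 3.17 ± 0.31 higher in eat-2, or 8.98-fold, and 1.85 ± 0.31 higher in clk-1. All 6 tested caenacin genes were called in eat-2, where 57% of all genes were, with cnc-8 the 1 that was lower (-0.41 ± 0.11). The calls of cnc-3, cnc-4 and cnc-7 were lost after quantile normalization. That of cnc-7, tested only because of its level in raga-1 on RNAi, was also lost in a leave-out. The rise of lys-1 in eat-2 was 1.28 ± 0.12.

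In raga-1 animals the largest fall of an abundant member was that of lys-4, with 320.1, 366.8, 396 and 347.8 normalized read counts against 834.9, 1242, 792.9 and 1266 in wild type (2.83-fold lower, log2 SE 0.15, adjusted p = 2.23e-10 by limma). Its scarcer neighbour lys-6 was also lower in raga-1 (-2.26 ± 0.62), and lys-2 was higher (1.42 ± 0.16). In age-1 animals, beside spp-2, lys-7 was 0.94 ± 0.16 and spp-1 0.78 ± 0.15 higher than in wild type. Among abundant members without overlap between age-1 and wild type, the largest fall was that of spp-10, with 1904, 1886, 2188 and 2034 against 2457, 2394, 2206 and 2595 in wild type. That fall of -0.27 ± 0.06 (adjusted p = 0.00166 by limma) was lost without libraries 1 (adjusted p = 0.0555).

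The clk-1 mutant differed from wild type in opposite directions within the lysozymes. The invertebrate-type gene ilys-5 had 1011, 798.9, 964.1 and 1124 normalized read counts in clk-1 against 8548, 10100, 8583 and 9705 in wild type, a log2 fold change of -3.25 ± 0.11 or 9.51-fold lower (adjusted p = 1.65e-23 by limma). In contrast lys-2 had 4484, 4415, 4362 and 3859 in clk-1 against 779.8, 1072, 757.8 and 1047 in wild type (2.24 ± 0.16, adjusted p = 2.61e-14 by limma). The levels of lys-7 were lower in clk-1 (-1.59 ± 0.16), and those of lys-4 (-0.87 ± 0.15) and spp-17 (-1.24 ± 0.09) as well. On RNAi the clk-1 libraries of ilys-5 remained below every wild type library, at 1431 to 2555 against 6340 to 7504 in wild type on RNAi.

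Whether RNAi acted differently in a mutant than in wild type was tested as an interaction, the RNAi effect in the mutant minus that in wild type. For clk-1, 15 of the 29 members differed, 13 with a higher and 2 with a lower RNAi effect, where 23.6% of all genes were called (13.7% higher, 9.9% lower). For raga-1, 19 differed (65.5%), 18 higher and 1 lower, where 55.6% of all genes were called (28.4% higher, 27.2% lower). The number called for raga-1 is near the share of all genes and is not a result about the members. In both interactions 12 members were called, among them lys-4, lys-7, lys-8, ilys-5, spp-1, spp-5 and cnc-8, and these 2 tests share the wild type libraries. The share of all genes called in both is not given here, so the number 12 is not a result about the members. The median interaction of the members was 0.69 in raga-1 and 0.40 in clk-1, against 0.12 and 0.03 over all genes. After quantile normalization the shift of 0.12 in raga-1 became -0.05, where 15 members were called higher and 2 lower against 38.8% higher among all called genes. The calls of cnc-3, ilys-4, spp-4 and spp-23 were lost there, and those of lys-8, spp-4 and spp-17 with TMM factors.

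The largest interaction of an abundant member with clk-1 was that of lys-7, 2.19 ± 0.22 (SE, n = 4 per group, adjusted p = 3.93e-09 by limma). It was 2.15 within batches 1 and 2 and 2.23 within batches 3 and 4. Those of lys-4 (1.59 ± 0.21) and ilys-5 (1.36 ± 0.15) followed. The lower effects in clk-1 were those of lys-2 (-0.83 ± 0.23) and the scarce lys-3 (-2.27 ± 0.78, adjusted p = 0.0313, and 0.132, 0.0677 and 0.152 without libraries 1, 2 or 3). With raga-1 the largest interaction of an abundant member was that of spp-1, 1.24 ± 0.21 (adjusted p = 8.82e-06 by limma), which fell in wild type and was not called in raga-1. It was followed by lys-7 (1.16 ± 0.22) and lys-4 (1.06 ± 0.21), and spp-18 was the member with a lower effect (-0.65 ± 0.25, lost without libraries 1, 3 or 4 at adjusted p = 0.0745, 0.105 and 0.0641).

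With eat-2, 3 interactions were called, or 10.3% of the members, where 10.7% of all genes were (3.98% higher, 6.73% lower). The number called is therefore not a result about the members, and none of the 3 calls held in all leave-outs. The lys-7 effect was lower by 0.77 on the log2 scale (SE 0.22, adjusted p = 0.0207 by limma, and 0.12 without libraries 2 or 0.116 without libraries 3). The others were spp-2 (-0.64 ± 0.20) and cnc-8 (0.50 ± 0.16). After TMM scaling the split was 0 higher and 2 lower. With age-1 none was called by limma or by edgeR on recovered reads, 2 members had an unadjusted p under 0.05, and 0.00811% of all genes were called. Of 12327 genes that is 1.

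**Figure D5:**
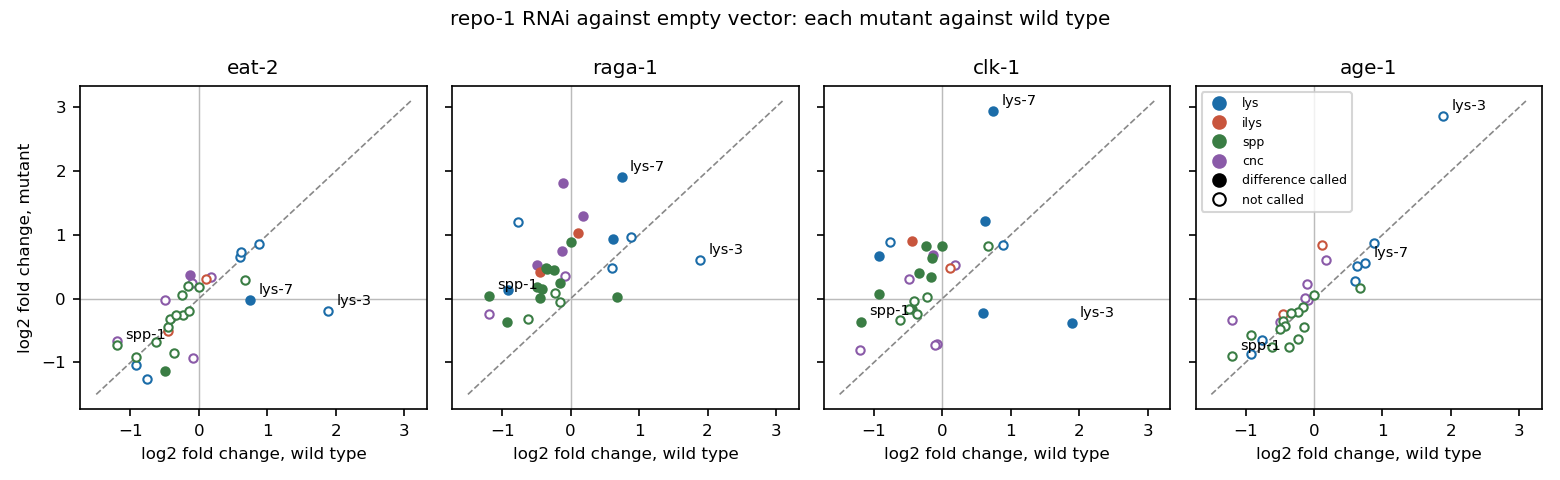
Log2 fold change on repo-1 RNAi in each mutant (vertical axis) against that in wild type (horizontal axis) for the 29 tested members, coloured by family, with a dashed line of equal change. Filled points differ from wild type at an adjusted p under 0.05, which holds for 3 (eat-2), 19 (raga-1), 15 (clk-1) and 0 (age-1) members; lys-7 in clk-1 stands highest above the line.

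Marker genes of tissues were followed beside the members. Of 28 tested intestine markers, 21 rose and 1 fell on RNAi in raga-1 and 11 rose and 4 fell in clk-1, while 2 rose and 11 fell in wild type, 3 rose and 10 fell in eat-2, and 2 rose and 9 fell in age-1. The share of intestine markers called was 46.4% (eat-2), 78.6% (raga-1), 53.6% (clk-1), 39.3% (age-1) and 46.4% (wild type). Over all genes it was 37.5%, 71.1%, 46.3%, 20.9% and 23% in the same order. The summed level of the intestine list was 148800 to 160000 normalized read counts in raga-1 on RNAi and 104700 to 114300 on empty vector. It was 141600 to 175300 in clk-1 on RNAi and 120600 to 137900 on empty vector, and 87430 to 90030 in wild type on RNAi and 95530 to 109300 on empty vector.

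Germline markers went the other way in raga-1, where 17 of 20 fell and 1 rose on RNAi, at a summed level of 114200 to 129200 on RNAi and 205200 to 224200 on empty vector. Of 21 epidermis markers 13 rose and 2 fell in raga-1 on RNAi, with a summed level of 65220 to 67980 on RNAi and 38630 to 46970 on empty vector. In raga-1 on RNAi 12 of 14 pharynx markers and 15 of 19 neuron markers rose as well, and none fell. Of 8 coelomocyte markers 4 rose and 3 fell there. The share called in raga-1 was 90% (germline), 71.4% (epidermis), 85.7% (pharynx), 78.9% (neuron) and 87.5% (coelomocyte). Over all genes 71.1% were called there (38.2% higher, 33% lower). Numbers called near that share, as for intestine, epidermis and neuron, are not results about the lists. Sperm markers rose in each genotype, 24 to 28 of 28. The part of tissue makeup in the members' changes was not tested. The median log2 fold change of the intestine list on RNAi was -0.14 (eat-2), 0.49 (raga-1), 0.19 (clk-1), -0.09 (age-1) and -0.24 (wild type). That of the members was -0.20, 0.45, 0.34, -0.22 and -0.23 in the same order. The other lists had, in this order, -0.2, 0.875, -0.127, 0.135 and 0.21 (epidermis) and -0.219, 0.79, 0.039, 0.07 and -0.01 (pharynx). For neuron it was -0.223, 0.721, 0.266, 0.022 and 0.003, and for coelomocyte -0.078, 0.464, 0.07, -0.074 and 0.037. For germline it was -0.013, -0.698, -0.029, 0 and -0.056, and for sperm 1.65, 3.255, 4.335, 1.82 and 1.86.

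Regulators of these effectors were followed in lists chosen with earlier results of these data known. Of 47 tested genes of immune signalling and transcription, 29 rose and 10 fell on RNAi in raga-1, 18 rose and 8 fell in clk-1, 10 rose and 8 fell in eat-2, 5 rose and 2 fell in wild type, and 5 rose and 4 fell in age-1. The share of the list called was 38.3% (eat-2), 83% (raga-1), 55.3% (clk-1), 19.1% (age-1) and 14.9% (wild type), beside 37.5%, 71.1%, 46.3%, 20.9% and 23% of all genes in the same order. Numbers called near the share of all genes, as in eat-2, clk-1, age-1 and wild type, are not results about the list. The p38 kinase gene pmk-1 fell in eat-2 (-0.44) and clk-1 (-0.47), and tir-1, which acts upstream of it, rose in wild type (0.92), eat-2 (1.00) and raga-1 (0.68). The FOXO factor gene daf-16 rose by 0.37 (raga-1), 0.24 (clk-1), 0.17 (eat-2) and 0.16 (age-1), and pqm-1, which acts in opposition to it, rose by 0.86 in both raga-1 and clk-1. These are log2 fold changes called by limma. Single genes named from this list and from the lists of the next paragraph were picked after their values were seen.

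Of the 13 genes of the DBL-1 pathway, 10 rose on RNAi in raga-1, 9 in clk-1, 2 in eat-2 and 1 each in wild type and age-1, and none fell. These counts are 15.4% (eat-2), 76.9% (raga-1), 69.2% (clk-1), 7.69% (age-1) and 7.69% (wild type) of the list. Over all genes 37.5%, 71.1%, 46.3%, 20.9% and 23% were called in the same order, so the number in raga-1 is not a result about the list. The type I receptor gene sma-6 rose by 1.00 in clk-1 and 0.61 in raga-1 on the log2 scale, and the ligand gene dbl-1 by 0.46 and 0.82. Of 33 tested genes for other antimicrobial and infection response proteins, 25 rose and none fell in raga-1, 14 rose and 4 fell in clk-1, 7 rose and 4 fell in eat-2, 5 rose and 2 fell in age-1, and 2 rose and 1 fell in wild type. The share called was 33.3% (eat-2), 75.8% (raga-1), 54.5% (clk-1), 21.2% (age-1) and 9.09% (wild type), beside the same shares of all genes. Numbers near those shares, as in eat-2, raga-1, clk-1 and age-1, are not results about this list. The defensin-like gene abf-2 rose in all 5 genotypes, by 5.34 in raga-1 and 1.28 to 2.16 in the other 4.

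The 21 members under the filter included 20 with at least 1 read, and 7 reached 10 normalized read counts in some library. The invertebrate-type lysozyme gene ilys-3, which acts against Gram-positive bacteria in the gut, had 19.1, 17.3, 30.2 and 19.6 normalized read counts in clk-1 on RNAi and 10.7, 7.29, 16.3 and 14.1 on empty vector. In wild type ilys-3 had 0.94, 6.92, 0 and 0 on RNAi and 0.86, 2.53, 0 and 1.25 on empty vector. It had 2.57, 7.69, 2.26 and 21.2 in eat-2 on RNAi and 2.63, 0.41, 3.81 and 1.94 on empty vector. In raga-1 the ilys-3 values were 5.53, 0, 5.7 and 2.7 on RNAi and 5.33, 0, 0 and 0 on empty vector, and in age-1 4.98, 5.08, 0 and 4.96 on RNAi and 2.6, 3.69, 0.73 and 0.77 on empty vector. The clk-1 libraries were the highest on each treatment apart from 1 eat-2 library on RNAi. Without the filter the difference of ilys-3 between clk-1 and wild type on empty vector was 2.69 ± 0.70 (adjusted p = 0.00203 by limma over 19461 genes).

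Other scarce members were higher in some groups than in others. The saposin-like gene spp-7 had 0, 0, 0 and 0 normalized read counts in clk-1 on RNAi and 9.89, 8.33, 8.59 and 7.69 on empty vector, and in eat-2 0, 1.81, 0 and 1.57 on RNAi and 17.8, 10.2, 8.39 and 11.6 on empty vector. In wild type spp-7 had 0.91 to 2.83 on RNAi and 0 to 3.37 on empty vector. The gene spp-13 followed the same order, with 2.46 to 6.2 in clk-1 on RNAi and 11.5 to 23.6 on empty vector, and 4.51 to 6.85 in eat-2 on RNAi and 19.1 to 26.8 on empty vector. Conversely spp-9 had 11.1, 5.82, 6.33 and 9 in raga-1 on RNAi and 0, 0, 4.13 and 0 on empty vector, and no read in any wild type or age-1 library. The caenacin gene cnc-6 had 9.35 to 35.1 in eat-2 and 3.84 to 14.6 in clk-1 on empty vector, against 0 to 1.72 in wild type. Of the 20 scarce members with a read, 13 had a call without the filter, with 49 calls in all over the 14 comparisons. The share of all genes called without the filter is not given here, so these numbers are not results about the members. The genes named in this paragraph were chosen after their values were seen.

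No read was counted for spp-20 in any library. The members cnc-1, cnc-5, cnc-9, cnc-11, ilys-1, ilys-6, lys-9, lys-10, spp-6, spp-11, spp-12, spp-19 and spp-21 stayed below 10 normalized read counts in each library. The remaining scarce members were ilys-2, with 13.3 to 19.4 in raga-1 on RNAi and 0 to 2.75 on empty vector, and lys-5, with 3.88 to 8.84 in raga-1 on RNAi and 0 to 4.13 on empty vector, and 6.89 to 23.7 in wild type on empty vector.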

How the data were processed

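Polyadenylated RNA of whole animals was sequenced in 40 libraries, 4 in each of 10 groups. Per the labels, the Qiagen miRNeasy kit served for extraction and the stranded Roche Kapa mRNA HyperPrep kit for library preparation, and the number of a library is its batch. The submitters' processing notes name Salmon 0.14.2, STAR, DESeq2, FastQC 0.11.8, MultiQC and the build WBcel235 without roles. The deposited unit is a signal, gene counts that the authors divided by 1 size factor per library. Whole reads were recovered by the step of each column (100% whole in all 40, with a tolerance of 0.01), although in 2 columns the step was within 1% of 1, so that the check carried little information there. Separate cultures are not stated in the labels. The p-values therefore reflect only how far these samples spread, which may be technical.

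Values were fitted as log2(value + 1) in limma 3.58.1 (R 4.3.3, with an intensity trend) for the 12327 genes whose mean across libraries was 10 or more. One mean per group was fitted, without the batch, and 14 comparisons were taken. P-values were adjusted by the Benjamini-Hochberg method over all tested genes within each comparison, and the fit was tested on simulated data. Fold changes are on the log2(value + 1) scale, which understates the change of low genes, and errors after ± are standard errors. Positions and exon lengths came from Ensembl release 115. The alternatives were other pseudocounts and filters, quantile and TMM scaling, array weights, edgeR 4.0.16 on recovered reads (which called 8312 genes for RNAi averaged over genotypes, against 8092 by limma), left-out libraries, fits within batches 1 and 2 or 3 and 4, and the batch as a block. As the labels tie numbers to batches, same-numbered libraries were checked for pairing: residuals correlated at 0.05 on average over 180 pairs of the same number and at -0.02 over 540 pairs of different numbers. Between RNAi and empty vector in eat-2 the 4 same-numbered pairs correlated at 0.256, 0.188, 0.109 and 0.157.

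Values in every library were to be given for lys-7, lys-8, ilys-3, spp-1, spp-5 and cnc-2 and, per comparison, for the called member with the largest change each way among those with a mean of at least 100 and no overlap of libraries, and per interaction for the largest called member of that abundance. The members and lists were chosen with earlier results of these data known. Protein and promoter sequences were not used here, and a planned motif count was not run.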

Additional observations from a re-analysis of the deposited data

Results flagged for a closer look

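The RNAi effect differed from that in wild type by the test of the difference itself, an interaction term in limma, in 37 cases. With raga-1 the differences on the log2 scale, mutant effect minus wild type effect, were those of cnc-10 (1.11), cnc-3 (1.02), cnc-7 (1.92), cnc-8 (0.87), ilys-4 (0.92), ilys-5 (0.87), lys-4 (1.06), lys-7 (1.16), lys-8 (0.32), spp-1 (1.24), spp-10 (0.46), spp-14 (0.88), spp-15 (0.57), spp-17 (0.40), spp-18 (-0.65), spp-2 (0.67), spp-23 (0.69), spp-4 (0.56), spp-5 (0.80). With clk-1 they were those of cnc-8 (0.81), ilys-5 (1.36), lys-2 (-0.83), lys-3 (-2.27), lys-4 (1.59), lys-7 (2.19), lys-8 (0.60), spp-1 (0.83), spp-10 (0.28), spp-14 (0.82), spp-17 (0.50), spp-23 (1.06), spp-4 (0.99), spp-5 (0.75), spp-8 (0.79). With eat-2 they were those of cnc-8 (0.50), lys-7 (-0.77), spp-2 (-0.64). Of these, cnc-7 reached the filter only through the raga-1 libraries on RNAi. Leaving out the libraries of 1 number lost the calls of cnc-7, lys-8, spp-15, spp-17, spp-18, spp-23 and spp-4 with raga-1, of lys-3 and spp-10 with clk-1, and of all 3 with eat-2.

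Single libraries lay far from the others of their group in 9 of 130 cases examined by Dixon's gap criterion, and chance alone gives about 1 in 20. For ilys-3 these were wild type RNAi library 2 at 6.92 normalized read counts, age-1 RNAi library 3 at 0 and raga-1 empty vector library 1 at 5.33. For lys-2 the eat-2 libraries numbered 1 stood apart on both treatments, at 4876 on RNAi and 2841 on empty vector. The others were lys-7 in eat-2 RNAi library 4 at 5331, spp-1 in wild type RNAi library 4 at 199.8, lys-4 in age-1 empty vector library 3 at 1501 and spp-5 in wild type empty vector library 1 at 5332.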

How the results depend on the processing

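The fit gave 207 calls of members over the 14 comparisons. Of these, 207 were kept with a pseudocount of 5, 200 without the filter, 189 of the 189 still tested at a mean of at least 50, 187 after quantile normalization, 198 with TMM factors, 204 with array weights, 198 by edgeR on recovered reads, 194 with only the compared groups in the fit and 206 without raga-1 RNAi library 3. Leaving out the libraries of each number in turn kept 175 to 186, while a fit to batches 1 and 2 kept 167 and a fit to batches 3 and 4 kept 162. Those fits hold fewer samples, and otherwise the cause of each lost call was not tested. With the replicate number as a block all 207 were kept and 6 were added, cnc-2 and cnc-4 on RNAi in clk-1, spp-15 on RNAi in eat-2, lys-4 in eat-2 and spp-18 in age-1 against wild type, and lys-6 in the raga-1 interaction, so the pairing changed no other call. On RNAi in age-1 the count of 17 became 11 within batches 1 and 2, 11 with only the compared groups and 11 to 14 in the leave-outs. The eat-2 interaction count of 3 became 5 with array weights, 5 with only the compared groups, 1 within each pair of batches and 0 to 2 in the leave-outs. For the age-1 interaction the count of 0 became 1 with array weights (ilys-4) and 1 within batches 1 and 2 (lys-2), with 0 in the leave-outs. No called direction reversed in the results named by the rule, and of all members' calls 1 changed sign, cnc-3 on RNAi in raga-1 at -0.01 after quantile normalization. The depth limits the 21 scarce members, where a change of a few reads moves the value.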
